A study of Mus musculus with 18 samples.

Results

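The 31 genes described here encode proteins that fold secreted and membrane proteins in the endoplasmic reticulum (ER), that sense unfolded protein there, or that remove it. They were chosen by name, from a list of ER folding and stress genes, among the 55401 genes of the deposited tables. They matched 32 rows, since *Ddit3* is annotated with a second, short and overlapping identifier that held 11.05 estimated counts in 1 pool only, and the row with the counts was used. By role they are 8 chaperones and co-chaperones, 2 lectin chaperones, 5 disulfide isomerases and related proteins, 2 prolyl isomerases, 3 stress sensors, 4 genes downstream of these sensors (3 transcription factors and *Trib3*) and 7 genes of ER-associated degradation.

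A protein that enters the ER is held by the chaperone BiP, the product of *Hspa5*, while disulfide bonds are formed by the protein disulfide isomerases and N-glycans are read by the lectins calreticulin and calnexin. Chains that do not fold are pulled back to the cytosol and degraded, a pathway called ER-associated degradation. When unfolded chains accumulate, the sensors IRE1alpha, ATF6 and PERK start the unfolded protein response, in which XBP1, ATF6 and ATF4 raise the transcription of chaperones, of degradation genes and of genes of amino acid supply. Cells of the nephron's thick ascending limb (TAL) make uromodulin, a glycoprotein rich in disulfide bonds that is secreted into urine in very large amounts and passes through this machinery.

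The pools of the study were hand-dissected TAL segments of adult male mice whose strain is labelled C57BL/6J (mostly C57BL/6 background in the study's methods), aged 4 to 10 months, with 150 to 200 tubules per pool and each pool from a distinct animal. Conditional knock-out mice (cKO) carried Cldn10 fl/fl alleles and a Cre recombinase under the promoter of Ksp-cadherin, which is active in tubular epithelium of the kidney, and WT mice were Cldn10 fl/fl littermates that lacked the Cre. The medullary segment (MTAL) came from the inner stripe (outer medulla), with 5 WT and 3 cKO pools, and the cortical segment (CTAL) from the cortex, with 5 WT and 5 cKO pools. *Cldn10* encodes claudin-10, a tight junction protein of the sodium-selective paracellular route, and the cKO outer medulla had calcium deposits that made dissection of MTAL difficult. Levels are given as TPM (corrected for transcript length and depth) where genes are compared with each other, and as CPM (counts scaled by normalized library size, not corrected for length) where pools are compared.

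Total counts lay between 10824299 and 62339939 per pool, and 20364 to 25265 genes were detected. *Cldn10* was at 653 to 810 CPM in WT MTAL against 151 to 296 CPM in cKO MTAL, and at 384 to 579 CPM in WT CTAL against 156 to 185 CPM in cKO CTAL, so that transcripts were lowered and not absent. The pool WT CTAL 1 carries a knock-out genotype in its labels and a WT pool name. It held 446 CPM of *Cldn10* and was used as WT. *Xist*, a transcript of female cells, was detected although the mice were male. It lay between 6.49 and 8.78 CPM in 7 pools (WT MTAL 11, 15, 17 and 19, WT CTAL 3 and 22, and cKO CTAL 2) and at 0.74 CPM or less in the others. TAL markers summed to between 51685 and 63031 CPM in WT MTAL and to between 68971 and 82033 CPM in cKO MTAL, 85449 and 97032 CPM in WT CTAL and 83434 and 100335 CPM in cKO CTAL. Endothelial markers summed to 256 to 398 CPM in WT MTAL and to 144 to 243 CPM in cKO MTAL, and proximal tubule markers to 160.1 to 256 CPM and 163 to 454 CPM, so that TAL and endothelial sums differed between the MTAL genotypes without overlap. Their part in the results was not tested. In bulk tubules, more transcript per cell and more cells of a type that is rich in it cannot be told apart. The pools cKO CTAL 2 and cKO MTAL 18 stood apart for many of the 31 genes, as described with each comparison, and fold changes without them are given for the genes that turned on them.

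The promoters show what many of these genes share in sequence. RefSeq promoter windows on GRCm38.p6, from 250 bases before to 50 bases after the annotated start, were matched for 27 of the 31 genes. *Atf6*, *Derl1*, *Manf* and *Hyou1* had none. The ER stress response element (ERSE), searched as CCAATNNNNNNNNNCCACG on both strands, is read by NF-Y at its CCAAT part and by ATF6 or XBP1 at its CCACG part. It occurred in windows of 9 of the 27 genes, and in those of 37 of all 27025 genes (0.137%), these 9 among them. The 9 genes were *Hspa5*, *Calr*, *Canx*, *Pdia6*, *Hsp90b1*, *Dnajc3*, *Creld2*, *Syvn1* and *Derl3*. With 1 mismatch allowed the element was in 16 of 27 windows, against 494 (1.504%) of all promoters. The second form, ERSE-II, searched as ATTGGNCCACG, was in the windows of *Dnajb11* and *Herpud1* and in those of 12 (0.0444%) of all genes. The stretches below are those of the most expressed of these genes and of both genes with ERSE-II, read 5′ to 3′ on the strand of the gene, with the matched element in capitals. An element read as CGTGG first lies on the opposite strand.

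Hspa5 (chr2:34772019-34772049, plus strand): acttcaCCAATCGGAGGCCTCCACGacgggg
Calr (chr8:84847069-84847099, minus strand): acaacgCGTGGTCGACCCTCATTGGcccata
Pdia6 (chr12:17266485-17266515, plus strand): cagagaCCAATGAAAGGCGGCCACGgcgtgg
Hsp90b1 (chr10:86705527-86705662, minus strand): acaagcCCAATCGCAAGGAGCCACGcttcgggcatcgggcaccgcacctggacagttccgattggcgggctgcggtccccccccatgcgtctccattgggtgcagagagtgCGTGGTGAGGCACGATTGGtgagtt
Canx (chr11:50325794-50325824, minus strand): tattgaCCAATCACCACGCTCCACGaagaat
Dnajc3 (chr14:118937821-118937851, plus strand): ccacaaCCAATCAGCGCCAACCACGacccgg
Dnajb11 (chr16:22857842-22857872, plus strand): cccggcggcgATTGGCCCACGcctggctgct
Herpud1 (chr8:94386367-94386397, plus strand): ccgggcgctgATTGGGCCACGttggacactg

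The element of *Hspa5* lay between 71 and 41 bases before the start of its window's annotation, and that of *Pdia6* between 104 and 74 bases before it, flanks included. The gene span of *Hspa5* given below is from another annotation, with an earlier start (34771970), so that the stretch lies inside that span. *Hsp90b1* held 2 copies in opposite orientation within the 136 bases printed. The single-factor core TGACGTG was in the windows of *Fkbp11* and *Hspa5* (2.22% of all genes). The element TGATGNAAT of ATF4 and its partners was in none of the 27 genes, against 1.08% of all genes. A match describes the letters of a window and not binding.

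In WT pools the levels of the 31 genes covered a wide range. On the TPM scale *Herpud1*, an ER membrane protein of the degradation complex, had the highest mean in WT MTAL (311 ± 135 TPM, SD, n = 5 pools), and *Calr* the highest in WT CTAL (324 ± 42.8 TPM, SD, n = 5). *Calr* stood at 288 ± 27.4 TPM in WT MTAL, *P4hb* at 272 ± 29.7, *Canx* at 226 ± 15.4, *Hsp90b1* at 204 ± 14.7 and *Hspa5* at 195 ± 31.2 TPM. These 6 genes were also the 6 with the highest means in WT CTAL, and the order among neighbours was within the spread of the pools. *Herpud1* varied most among them, from 173 to 521 TPM in WT MTAL and from 202 to 367 TPM in WT CTAL. The oxidoreductase *Pdia3* and the prolyl isomerase *Fkbp2* followed at 142 ± 9.25 and 116 ± 10.8 TPM in WT MTAL. The mRNAs of the stress sensors were far less abundant, with 27.5 TPM for *Eif2ak3* (PERK), 14.1 for *Atf6* and 7.66 for *Ern1* (IRE1alpha) in WT MTAL. At the bottom were *Fkbp11* (2.03 ± 0.84 TPM), *Derl3* (0.867 TPM) and *Trib3* (0.393 TPM), so that *Derl3* and *Trib3* passed the filter on low counts in no comparison. *Umod* had between 11324 and 14530 TPM in WT MTAL and between 21170 and 24680 TPM in WT CTAL, several times the summed TPM of all 31 genes in the same pools (2055 to 2898 TPM).

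**Figure D1:**
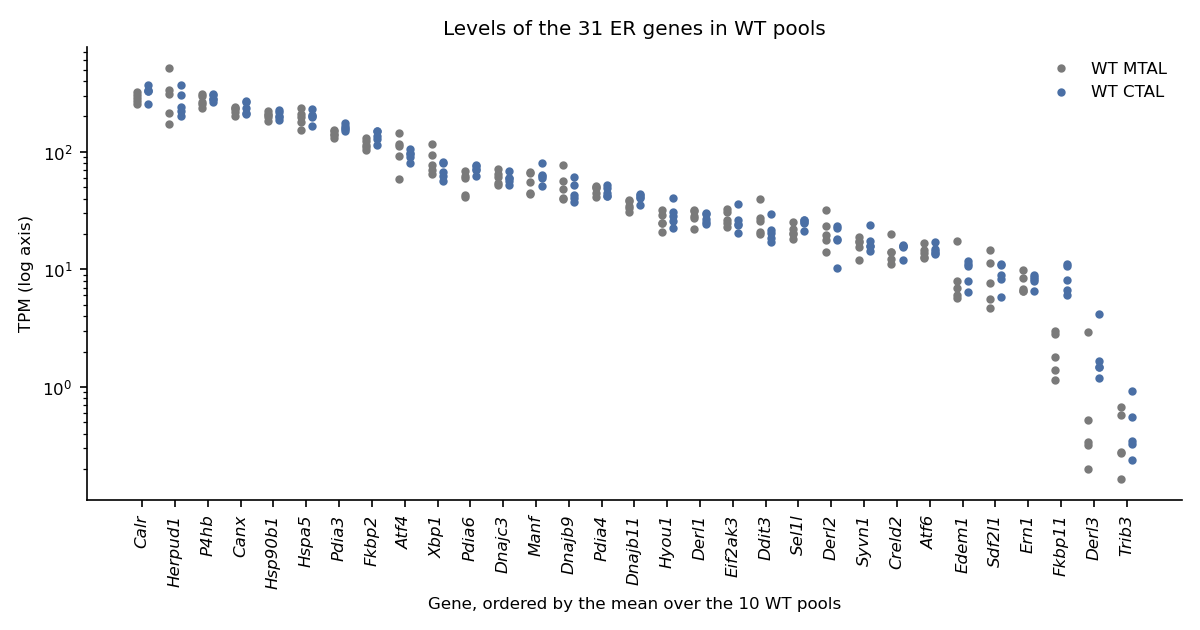
Level of each of the 31 genes (TPM, log axis) in the 5 WT MTAL pools (grey) and the 5 WT CTAL pools (blue), 1 point per pool, with genes ordered by their mean over the 10 pools. The genes fall from *Calr*, *Herpud1* and *P4hb* at the top to *Derl3* and *Trib3* at the bottom, and both segments overlap for every gene except *Fkbp11*, whose WT CTAL pools all lie above the WT MTAL pools.

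The comparison of cKO MTAL with WT MTAL asked what the loss of claudin-10 changes where it is most abundant. In cKO MTAL 5 of 8 chaperones and co-chaperones, 3 of 5 disulfide isomerases and the lectin chaperone *Calr* were more expressed, with *Calr*, *Hspa5* and *Hyou1* at 1.63-fold to 1.70-fold. *Hsp90b1*, *Dnajc3*, *Dnajb9*, *P4hb*, *Creld2* and *Canx* did not pass the test, nor did any stress sensor, transcription factor or degradation gene. Of the 28 genes tested, 9 were called at an adjusted p under 0.05 (edgeR quasi-likelihood test), all of them higher, and 11 had an unadjusted p under 0.05 (23.6% of all genes). Of all 12060 genes tested, 7.01% were called, 4.44% higher and 2.57% lower. Among all called genes 63.3% were higher, a share that was 76.3% with total counts in place of TMM scaling and 89.9% with limma on TPM, where the median gene shifted by 0.19 on the log2 scale. The 28 genes had a median log2 fold change of 0.20 beside 0.00 over all genes, and 21 of the 28 were positive (50.1% of all genes). For 8 genes the cKO pools did not overlap the WT pools, all of them higher, where 6.81% of all genes were higher without overlap. Of the other roles, 0 of 1 prolyl isomerase, 0 of 3 sensors, 0 of 3 transcription factors and 0 of 6 degradation genes were called. *Xist* was at 3 CPM or more in 4 of 5 WT MTAL pools and 0 of 3 cKO MTAL pools. With a term for pools with *Xist*, added after seeing the data, 0 of the 28 genes and 47 of all genes were called, the median of the 28 was 0.29, and the 9 genes had log2 fold changes between 0.48 (*Pdia3*) and 1.14 (*Sdf2l1*) with adjusted p between 0.273 (*Hspa5*) and 0.702 (*Manf*).

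*Hspa5* (chromosome 2 of GRCm38, from 34771970 to 34777547), which encodes BiP, was at 409, 326, 316, 307 and 391.6 CPM in WT MTAL and at 523, 771 and 477 CPM in cKO MTAL. All 3 cKO pools lay above every WT pool, and replicate 18 was far above the other cKO pools. The log2 fold change was 0.76 (SE 0.15, adjusted p = 0.00709), a 1.69-fold rise. *Hyou1*, whose product GRP170 exchanges the nucleotide bound to BiP, was at 93.1, 94.8, 87.2, 76.3 and 95.6 CPM in WT MTAL and at 124, 211 and 119.5 CPM in cKO MTAL, again without overlap (log2 fold change 0.77, SE 0.17, adjusted p = 0.0109). *Dnajb11*, a J-domain co-chaperone that hands chains to BiP, was between 45.1 and 56.0 CPM in WT MTAL and at 60.1, 104 and 90.2 CPM in cKO MTAL (log2 fold change 0.73, SE 0.16, adjusted p = 0.0115). Here 2 of the 3 cKO pools were clearly higher and replicate 16 was just above the WT range. *Sdf2l1*, which works with the DNAJB11 protein, was the only member of the 28 that was called with a change of at least 2-fold (3.74% of all genes). It was at 12.6, 8.74, 6.31, 4.03 and 4.91 CPM in WT MTAL and at 12.0, 29.8 and 15.5 CPM in cKO MTAL, so that cKO MTAL 16 lay below the highest WT pool (log2 fold change 1.40, SE 0.37, adjusted p = 0.0351).

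*Manf*, which encodes a small BiP-binding protein of the ER that is also secreted, was between 25.04 and 30.3 CPM in WT MTAL and at 33.2, 86.6 and 33.4 CPM in cKO MTAL. Its log2 fold change of 0.90 (SE 0.26, adjusted p = 0.0458) rested on replicate 18, without which it was 0.28 (adjusted p = 0.390). Exons of *Manf* overlap those of *Dcaf1* on the other strand and of *Rbm15b* on its own, so that reads could have been shared. *Hsp90b1*, the ER form of HSP90, was between 365 and 414 CPM in WT MTAL and at 490.3, 683 and 355 CPM in cKO MTAL, with pools on both sides of the WT range, and was not called (log2 fold change 0.40, 95% interval 0.06 to 0.73, adjusted p = 0.138). *Dnajb9*, a co-chaperone that recruits BiP to IRE1alpha, had the lowest fold change of the chaperones. It was between 67.3 and 81.7 CPM in WT MTAL and at 48.3, 78.2 and 48.5 CPM in cKO MTAL (−0.34, adjusted p = 0.216), and *Dnajc3* had a log2 fold change of 0.07.

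*Calr* (chromosome 8, from 84841850 to 84846934), the soluble lectin chaperone that also stores calcium in the ER, was at 399, 420.0, 401, 361 and 491 CPM in WT MTAL and at 545, 830.2 and 646 CPM in cKO MTAL. The groups did not overlap, and the gene had the lowest adjusted p of the 28 (log2 fold change 0.71, SE 0.14, adjusted p = 0.00582). Its membrane-bound counterpart *Canx* was between 362 and 451 CPM in WT MTAL and at 429, 519 and 420.0 CPM in cKO MTAL, which overlapped (log2 fold change 0.15, 95% interval −0.09 to 0.40). Among the disulfide isomerases, *Pdia3*, the partner of both lectins, was between 235 and 274 CPM in WT MTAL and at 325, 439 and 328 CPM in cKO MTAL (log2 fold change 0.51, SE 0.12, adjusted p = 0.0171). *Pdia4* was between 81.1 and 99.7 CPM against 118, 185 and 121 CPM (0.68, SE 0.15, adjusted p = 0.0111), and *Pdia6* between 66.3 and 113 CPM against 118, 164 and 134 CPM (0.73, SE 0.16, adjusted p = 0.0126). For all 3 isomerases every cKO pool lay above every WT pool. Exons of *Pdia3* overlap those of *Catsper2*, and exons of *Pdia6* those of *Atp6v1c2*, both on the other strand, so that reads could have been shared here too. *P4hb*, the most abundant isomerase, had a log2 fold change of 0.16 (95% interval −0.06 to 0.39), and *Creld2* one of 0.51 (adjusted p = 0.223). The prolyl isomerase *Fkbp2* had the same log2 fold change (0.51, adjusted p = 0.0671), but with another order of pools, since its cKO values were 74.3, 55.8 and 99.0 CPM and replicate 18 was the lowest.

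**Figure D2:**
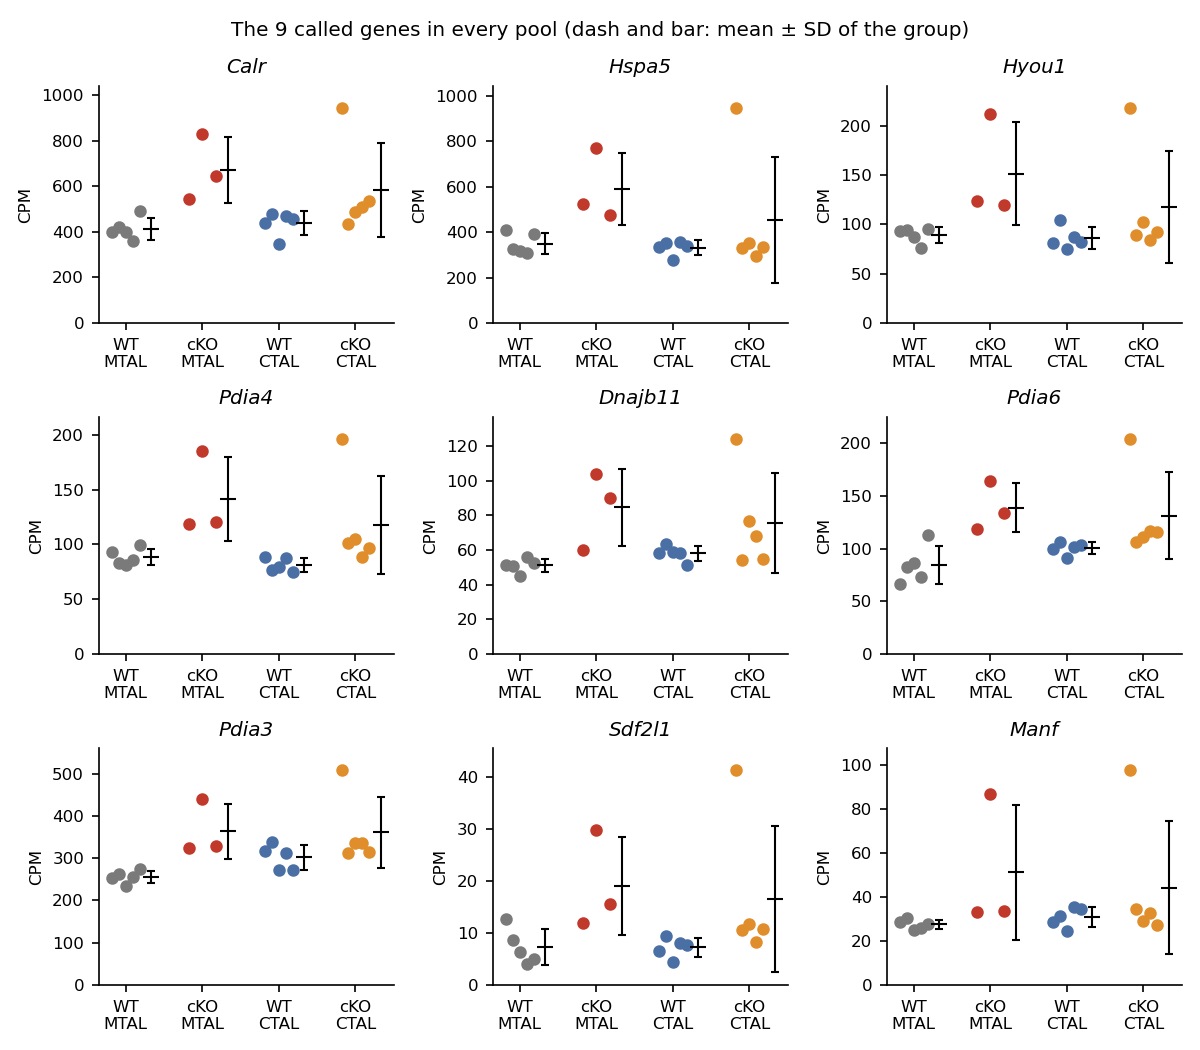
CPM (linear axes from 0) of the 9 genes called in cKO MTAL, 1 point per pool in the 4 groups, with the mean and SD of each group as dash and bar beside the points. In each panel the cKO CTAL pool that stands far above the others is replicate 2 and the highest cKO MTAL pool is replicate 18.

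The genes that sense and signal ER stress did not pass the test. The sensor genes had log2 fold changes of −0.03 for *Ern1* (95% interval −0.42 to 0.36), −0.03 for *Atf6* (−0.35 to 0.28) and 0.03 for *Eif2ak3* (−0.24 to 0.29). *Xbp1* was at 101, 149, 106, 102 and 140.2 CPM in WT MTAL and at 123, 161 and 120.1 CPM in cKO MTAL (0.18, 95% interval −0.16 to 0.51). These counts do not separate its spliced from its unspliced form. *Atf4* was between 88.4 and 198 CPM against 168, 126 and 133 CPM (−0.03, 95% interval −0.44 to 0.38). *Ddit3*, which encodes the death-associated factor CHOP, was between 13.8 and 23.4 CPM against 19.7, 11.4 and 17.5 CPM (−0.07, 95% interval −0.60 to 0.46), and replicate 18 was its lowest MTAL pool. The exons of *Ddit3* overlap those of *Mars* on the other strand.

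No degradation gene passed the test either. *Herpud1* was at 439, 376, 716, 245 and 271 CPM in WT MTAL and at 251, 366 and 308 CPM in cKO MTAL, all within the WT range (log2 fold change −0.40, 95% interval −0.97 to 0.16). *Syvn1*, the ubiquitin ligase of the pathway, and its adaptor *Sel1l* had log2 fold changes of 0.23 and 0.18. The channel proteins *Derl1* and *Derl2* had 0.08 and −0.07, and the mannosidase-like *Edem1* had 0.33 (adjusted p = 0.391). *Fkbp11* did not pass the filter in this comparison, and without the filter it was called (2.62, adjusted p = 0.00101). It was between 0.701 and 1.67 CPM in WT MTAL and at 2.80, 2.47 and 16.8 CPM in cKO MTAL, so that 1 cKO pool, replicate 20, was far above the rest. The same pool held the highest sum of principal cell markers (1005 CPM, 71.1 to 331 CPM in the others) and of intercalated cell markers (249 CPM, at most 166 CPM in the others), and their part in the level of *Fkbp11* was not tested.

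Without cKO MTAL 18 the number of genes called was 6, of which 4 (*Calr*, *Hspa5*, *Hyou1* and *Pdia6*) had been called before, while the number over all genes was 968 against 845. *Calr* then had a log2 fold change of 0.53 (adjusted p = 0.0222), *Hspa5* 0.52 (0.0273), *Pdia6* 0.59 (0.0481) and *Hyou1* 0.45 (0.0481). The calls of *Manf*, *Dnajb11* (0.56, adjusted p = 0.0551), *Pdia3* (0.36, 0.0687), *Pdia4* (0.44, 0.0513) and *Sdf2l1* (0.92, 0.190) were lost. *Fkbp2* was called as higher (0.69, adjusted p = 0.0119) and *Dnajb9* as lower (−0.61, adjusted p = 0.0204). Without cKO MTAL 20 *Hsp90b1* was called (0.61, adjusted p = 0.0212) and *Sdf2l1* was lost. *Manf* was lost without any 1 of the 5 WT pools, and *Sdf2l1* without WT MTAL 15, 17 or 19.

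In the cortex, the comparison of cKO CTAL with WT CTAL gave no call among the 29 genes tested in edgeR's quasi-likelihood test, where 1.22% of all 11702 genes were called. At an unadjusted p under 0.05 there were 4, *Sdf2l1*, *Pdia4*, *Pdia6* and *Calr* (11.8% of all genes). The DESeq2 tests and edgeR's likelihood ratio test also called 0 of the 29. Log2 fold changes were positive for 22 of 29 genes with a median of 0.10, beside 50.5% of all genes, but this depended on 1 pool. Without cKO CTAL 2, 13 of 29 were positive and the median was −0.02. Of all called genes, 53.8% were higher, 73.6% with total counts, 90.2% with limma on TPM (median gene shifted by 0.13) and 38.9% with WT CTAL 1 counted as cKO.

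*Hspa5* was at 335, 353, 278, 358 and 338 CPM in WT CTAL and at 949, 332, 352, 296 and 336 CPM in cKO CTAL. The 4 cKO pools other than replicate 2 lay within the WT range, and the log2 fold change of 0.44 (95% interval −0.12 to 0.996, adjusted p = 0.562) was −0.02 without that pool. *Manf* was at 97.7 CPM in cKO CTAL 2 and between 27.4 and 34.4 CPM in the other cKO pools, with WT CTAL between 24.6 and 35.3 CPM. *Hyou1* was at 218 CPM in replicate 2 and between 84.2 and 103 CPM in the other cKO pools, with WT CTAL between 74.8 and 105 CPM. Both genes followed the same pattern as *Hspa5*, with log2 fold changes of 0.52 and 0.44 that were −0.01 and 0.09 without the pool. *Calr* was at 947 CPM in replicate 2 and between 435 and 536 CPM in the others, against 349 to 479 CPM in WT CTAL (log2 fold change 0.40, adjusted p = 0.375, and 0.16 without the pool), and *Pdia6* had 0.37 (adjusted p = 0.326), which was 0.16 without it.

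*Pdia4* and *Sdf2l1* differed from these in the remaining pools. *Pdia4* was at 88.4, 76.6, 79.9, 87.5 and 74.9 CPM in WT CTAL and at 197, 102, 105, 88.7 and 96.9 CPM in cKO CTAL. It was the only one of the 29 genes whose groups did not overlap, where 1.86% of all genes were higher without overlap (log2 fold change 0.52, SE 0.18, adjusted p = 0.217, and 0.26 without replicate 2). *Sdf2l1* was at 6.46, 9.50, 4.51, 8.09 and 7.64 CPM in WT CTAL and at 41.4, 10.5, 11.8, 8.35 and 10.7 CPM in cKO CTAL, with overlap in 1 pool (1.21, SE 0.39, adjusted p = 0.191, and 0.51 without replicate 2). *Ddit3* had the most negative fold change of the 29 (−0.37, 95% interval −0.82 to 0.08), with 11.01, 14.0, 11.3, 12.9 and 19.2 CPM in WT CTAL and 11.4, 9.20, 7.46, 9.47 and 15.98 CPM in cKO CTAL.

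**Figure D3:**
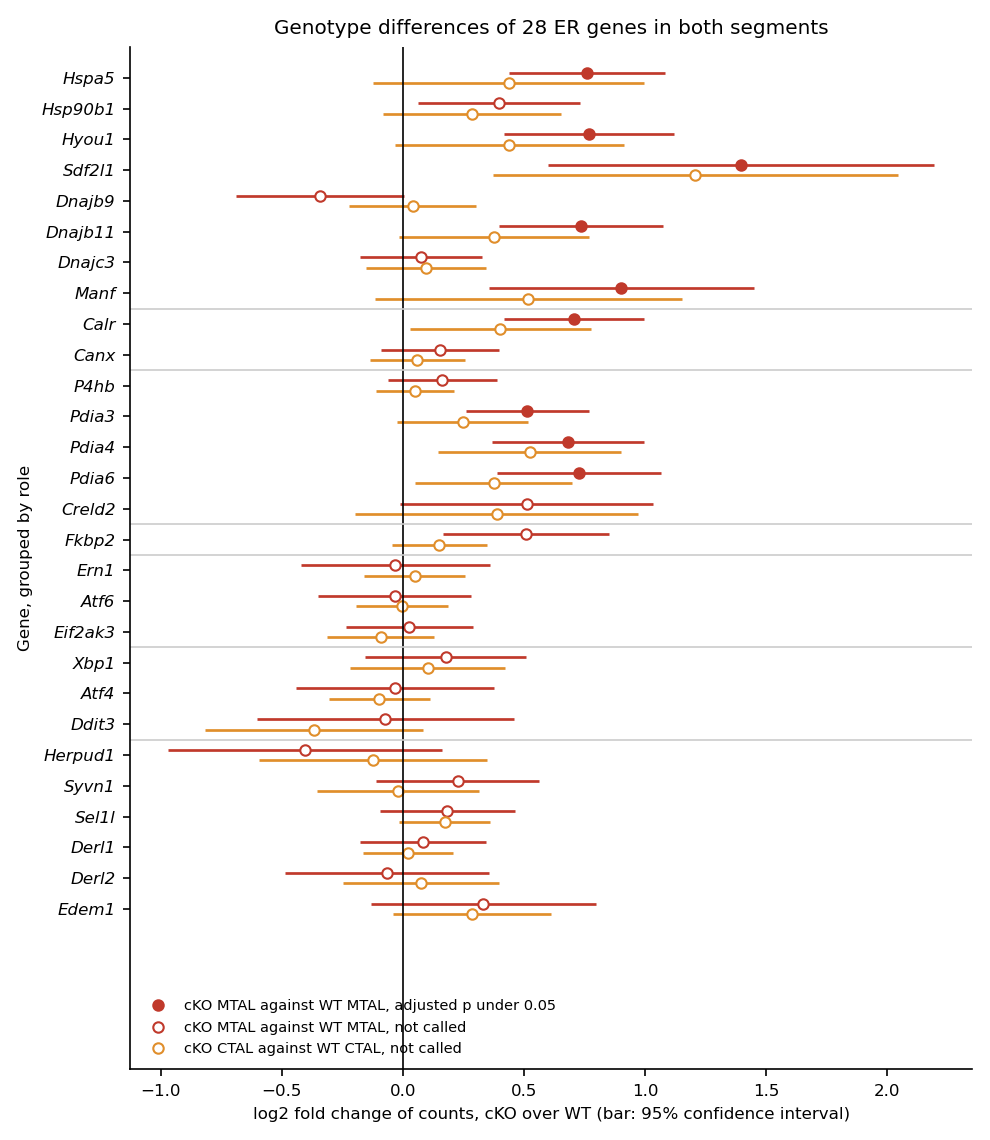
Log2 fold change of cKO over WT with its 95% interval for 28 genes grouped by role, in MTAL (red, filled where the adjusted p was under 0.05) and in CTAL (orange, none called). The 9 filled points are chaperones, *Calr* and disulfide isomerases, and the points of sensors, transcription factors and degradation genes have intervals that include 0 in both segments.

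The pools cKO CTAL 2 and cKO MTAL 18 were alike in which roles stood out. Of the 31 genes, 19 had their highest level of all 18 pools in cKO CTAL 2, among them all 9 that were called in MTAL, and 23 had their highest level of the 3 cKO MTAL pools in cKO MTAL 18. Relative to the WT mean of the segment, the 9 called genes had a median log2 ratio of 1.27 in cKO CTAL 2 and 1.06 in cKO MTAL 18. It was 0.42 and 0.45 in cKO MTAL 16 and 20, 0.06 to 0.15 in the other cKO CTAL pools and −0.20 to 0.13 in WT pools. All 3 cKO MTAL pools had each of these genes above the WT mean. These ratios are a description in MTAL, since the genes were called in those pools, and the CTAL pools took no part in that choice. By role, the medians of cKO CTAL 2 were 1.22 for chaperones, 1.02 for disulfide isomerases and 0.44 for degradation genes, beside −0.12 for sensors and −0.25 for transcription factors. In cKO MTAL 18 they were 1.08, 0.94 and 0.28, beside −0.04 and −0.21. *Xbp1* was the exception among the transcription factors, with 144 CPM in cKO CTAL 2 (at most 99.1 CPM in the other cKO CTAL pools) and 161 CPM in cKO MTAL 18. *Hspa5* reached its highest levels, 949 and 771 CPM, in these 2 pools, and *Ddit3* was at 11.4 CPM in both.

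**Figure D4:**
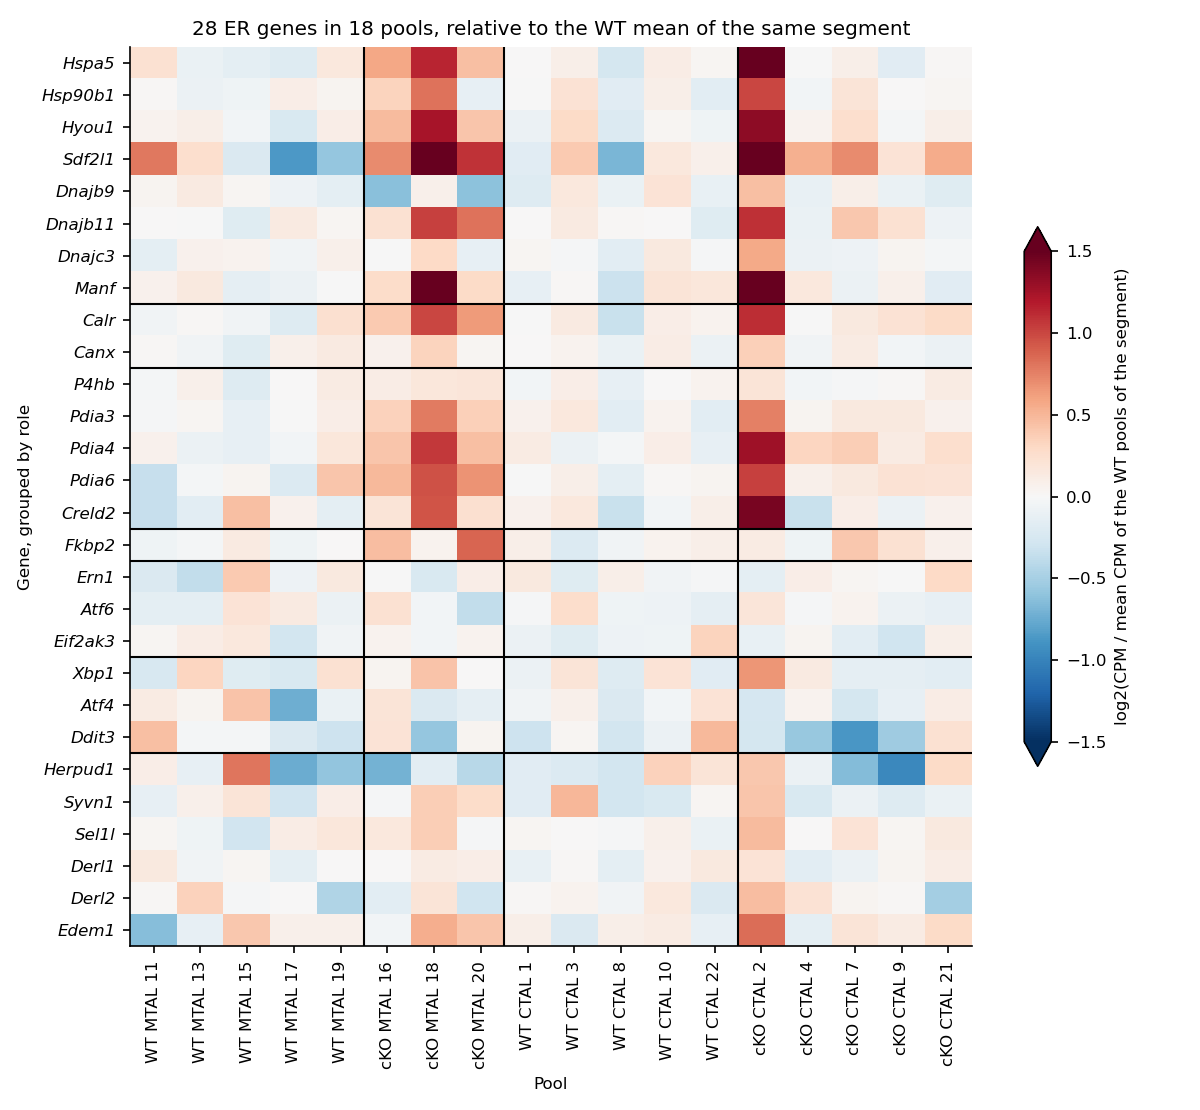
Log2 ratio of CPM to the WT mean of the same segment for 28 genes (rows, grouped by role) in 18 pools (columns, grouped by segment and genotype), with red above and blue below the WT mean and the colours capped at 1.5 in either direction. The columns of cKO MTAL 18 and cKO CTAL 2 are red for most chaperones, *Calr* and most disulfide isomerases and pale for sensors, and the rows of *Herpud1*, *Ddit3* and *Atf4* vary among WT pools too.

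The same pools had the highest sums of tubular injury markers. The 7 markers (*Havcr1*, *Lcn2*, *Krt8*, *Krt18*, *Spp1*, *Vcam1* and *Clu*), most of whose counts are those of the secreted phosphoprotein *Spp1*, summed to 9227 CPM in cKO MTAL 18 and 4978 CPM in cKO CTAL 2. Sums were 2338 and 2375 CPM in the other cKO MTAL pools, 1899 to 2963 CPM in the other cKO CTAL pools, 1172 to 1438 CPM in WT MTAL and 1513 to 1785 CPM in WT CTAL. The pools fall into separate clusters in these sums, so that no correlation is given, and the part of injured tubules in the levels of the ER genes was not tested. *Lcn2* was at 282 CPM in cKO MTAL 18 and 84.6 CPM in cKO CTAL 2, with at most 46.0 CPM elsewhere, and *Spp1* and *Clu* were also highest in these pools. *Havcr1* reached 6.37 CPM in cKO MTAL 18 and at most 0.476 CPM elsewhere. *Krt8* and *Krt18* were likewise highest in cKO MTAL 18 but not raised above all other pools in cKO CTAL 2. *Vcam1* was highest in WT MTAL 15 (13.7 CPM, with 4.59 and 6.21 CPM in cKO MTAL 18 and cKO CTAL 2). The 8 markers of plasma cells, which are rich in ER chaperones, summed to 9.90 to 19.3 CPM in cKO MTAL and to 4.16 to 39.3 CPM in WT MTAL. The highest sums were in WT CTAL 1 and cKO CTAL 21 (147 and 214 CPM), whose medians for the 9 genes were 0.00 and 0.09, and the part of plasma cells in the levels was not tested. cKO CTAL 2 also had the highest sum of the 5 distal convoluted tubule markers (124 CPM, 6.65 to 45.2 CPM elsewhere). The pools cKO MTAL 18 and cKO CTAL 2 had the highest sums of the 10 proximal tubule markers (454 and 352 CPM, at most 337 CPM elsewhere). They also had the highest sums of the 7 fibroblast and pericyte markers (56.8 and 57.0 CPM, at most 44.5 CPM elsewhere). The part of these cell types in the levels of the ER genes was not tested.

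**Figure D5:**
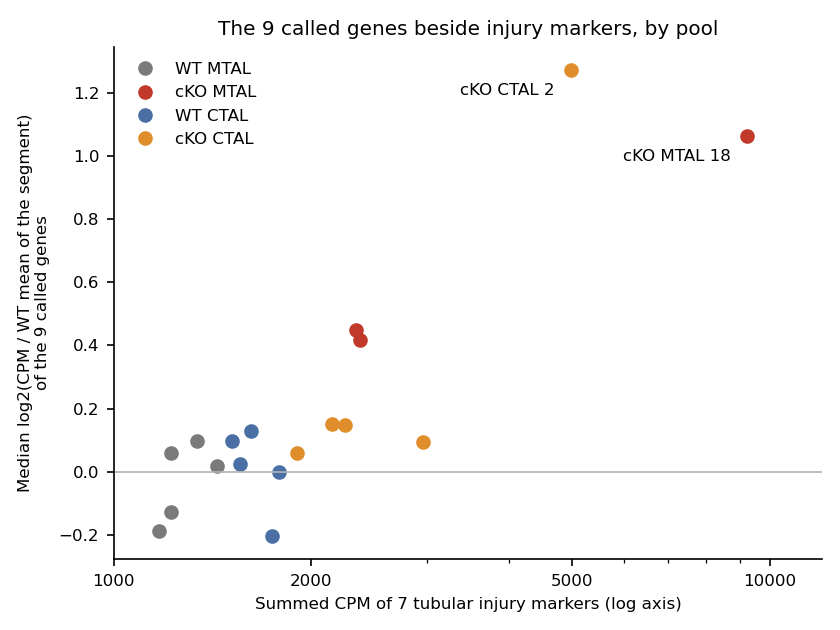
Median log2 ratio of the 9 called genes to the WT mean of the segment (vertical axis) against the summed CPM of 7 tubular injury markers (horizontal log axis), 1 point per pool coloured by group. cKO CTAL 2 and cKO MTAL 18 lie apart at the upper right, at 1.27 and 1.06, and cKO MTAL 16 and 20 lie at 0.42 and 0.45. The heights of the cKO MTAL pools are a description, since the 9 genes were called in those pools. The injury sums are not relative to the WT pools of the segment.

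The comparison of WT MTAL with WT CTAL asked how the segments differ without deletion. Of 29 genes tested, 1 was called, *Fkbp11*, lower in MTAL, where 6.87% of all 11650 genes were called (4.10% lower). *Fkbp11*, an ER prolyl isomerase of secretory cells, was at 1.67, 0.758, 1.63, 1.06 and 0.701 CPM in WT MTAL and at 5.79, 3.76, 6.10, 2.97 and 6.94 CPM in WT CTAL. The groups did not overlap, as for 4.32% of all genes in that direction (log2 fold change −2.17, SE 0.34, adjusted p = 0.000538). At an unadjusted p under 0.05 there were 5 of the 29 (19.1% of all genes). It passed the filter only through WT CTAL, so that a gene at this level had to differ to be tested, and without any 1 WT CTAL pool it was not tested. Of all called genes 40.2% were higher in MTAL, and 21.5% with limma on TPM.

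*Xbp1* averaged 119.8 ± 23.2 CPM over the WT MTAL pools and 90.5 ± 12.4 CPM over the WT CTAL pools (SD, n = 5 each). It had the largest positive difference of the 29 (0.41, SE 0.13, adjusted p = 0.0672), with overlap between the pools. Both DESeq2 tests and edgeR's likelihood ratio test put it under the threshold (adjusted p = 0.0278 to 0.0341), as did the fits without WT MTAL 11 or 17. *Pdia3* averaged 256 ± 13.9 CPM and 302 ± 29.7 CPM in these groups (−0.24, adjusted p = 0.0974). *Pdia6* had −0.26 (adjusted p = 0.248, and −0.38 with adjusted p = 0.0264 without WT MTAL 19). *Hspa5* and *Calr* differed by 0.07 (95% interval −0.13 to 0.28) and −0.08 (−0.29 to 0.13) between the segments, while *Umod* was lower in MTAL (−0.78, adjusted p = 4.11e-05).

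Between cKO MTAL and cKO CTAL 0 of 29 genes were called, where 1.75% of all 12044 genes were, and 4 had an unadjusted p under 0.05 (17.7% of all genes). DESeq2 and edgeR's likelihood ratio test called 0 as well. The 4 genes were 1 sensor and the 3 transcription factors, all with positive values, namely *Eif2ak3* (log2 fold change 0.36, SE 0.11, adjusted p = 0.113), *Xbp1* (0.50, SE 0.18, adjusted p = 0.180), *Ddit3* (0.63, SE 0.27, adjusted p = 0.244) and *Atf4* (0.29, SE 0.13, adjusted p = 0.271). *Eif2ak3*, which encodes PERK, was at 97.9, 92.2 and 98.2 CPM in cKO MTAL and at 74.9, 83.7, 72.9, 66.2 and 86.4 CPM in cKO CTAL. It was the only gene of the 29 without overlap, where 4.21% of all genes were higher without overlap. *Hspa5* had a difference of 0.41 (95% interval −0.33 to 1.16). Without cKO CTAL 2, *Hspa5* (0.86, adjusted p = 0.0169) and *Xbp1* (0.66, adjusted p = 0.0266) were called. Of all called genes 64.0% were higher in MTAL, and 79.1% without cKO MTAL 18.

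Whether the genotype acted differently in the segments was tested as the interaction of genotype and segment in all 18 pools. It called 0 of the 29 genes, where 0.286% of all 12586 genes were called, and 1 had an unadjusted p under 0.05 (14.7% of all genes). That gene was *Fkbp11* (2.82, SE 0.69, adjusted p = 0.0663), which DESeq2 and edgeR's likelihood ratio test called (adjusted p = 0.00625 to 0.00813), and whose value was 1.34 without cKO MTAL 20. *Hspa5* had a difference between the genotype effects of 0.31 (95% interval −0.43 to 1.04), *Calr* one of 0.29 (−0.23 to 0.80) and *Dnajb9* the lowest, −0.40 (−0.83 to 0.03). Of the 9 genes called in MTAL, 0 had a genotype effect that was called as different between the segments. Without cKO CTAL 2 and cKO MTAL 20, left out together after seeing the data, *Hspa5* was called in the interaction (0.90, adjusted p = 0.0319). With only 1 pool left out it was not called. Without cKO MTAL 18, 15 of the 29 genes had a positive interaction with a median of 0.00, against 22 and 0.10 with all pools.

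*Umod*, the main cargo, was at 31781, 27250.2, 23817, 29707 and 29575 CPM in WT MTAL and at 42537, 44715 and 47773 CPM in cKO MTAL. All cKO pools were above the WT pools (log2 fold change 0.67, SE 0.11, adjusted p = 0.00223), and in CTAL the difference was 0.04 (adjusted p = 0.907). The interaction was called at 0.61 (adjusted p = 0.0450). The ratio of *Umod* TPM to the summed TPM of the 9 called ER genes was 13.7 to 17.5 in WT MTAL and 16.6, 11.3 and 16.5 in cKO MTAL 16, 18 and 20, so that 2 of the 3 cKO pools lay within the WT range. It was 22.3 to 29.4 in WT CTAL and 21.5 to 25.6 in 4 cKO CTAL pools, but 10.9 in cKO CTAL 2. These 2 low ratios belong to the pools with the highest levels of the 9 genes, which are the divisor of the ratio. Their *Umod* (44715 and 49791 CPM) was in the range of their groups. The 9 genes were called as higher in the cKO MTAL pools, a choice that lowers the ratio there. Over all 31 genes, the summed TPM was 2055 to 2706 in WT MTAL. In cKO MTAL 16, 18 and 20 this sum was 3093, 4271 and 3503 TPM. *Umod* was at 11324 to 14530 TPM in WT MTAL and at 21113, 23966 and 25602 TPM in these cKO pools. Relative to the sum of all 31 genes, *Umod* lay above the WT MTAL range in cKO MTAL 16 and 20 and within it in 18.

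The pathway lists hold further genes of ER folding and stress, and their counts in cKO MTAL stand beside 7.01% of all genes called (4.44% higher and 2.57% lower). In cKO MTAL against WT MTAL, 2 of 33 other folding enzymes (6.06%) were called, both higher, namely *Erp29* (log2 fold change 0.65, adjusted p = 0.00384), a thioredoxin-like ER protein, and *Ppib* (0.39, adjusted p = 0.0335), the ER cyclophilin. Of 32 genes of translocation and N-glycosylation 1 (3.13%) was called, *Ssr2* (0.70, adjusted p = 0.0165), a subunit of the translocon-associated complex, and 27 of the 32 were positive. Of 27 other degradation genes 1 (3.70%) was called, *Foxred2*, as lower (−0.69, adjusted p = 0.0156). Of 26 genes of the eIF2alpha and ATF4 pathway, 1 was higher and 2 were lower (11.5% called). These were the transcription factor *Cebpb* (1.36, adjusted p = 0.00926), the glutathione-degrading *Chac1* (−1.98, adjusted p = 0.0138) and the lipoprotein receptor *Vldlr* (−0.56, adjusted p = 0.0126). None of the 20 other genes of the ATF6 and IRE1 pathways was called. In cKO CTAL against WT CTAL 0 genes of any of these lists were called, of 31, 32, 27, 23 and 20 tested.

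Between segments, genes of the ATF4 pathway were called as higher in MTAL. In WT MTAL against WT CTAL 5 of its 26 genes were called, all higher in MTAL, where 2.76% of all genes were higher. They were led by *Nupr1*, a stress-induced nuclear protein (log2 fold change 2.05, adjusted p = 4.38e-05), *Chac1* (1.92, adjusted p = 0.00199) and the amino acid transporter *Slc7a5* (1.22, adjusted p = 1.9e-05). In cKO MTAL against cKO CTAL 4 of 25 were called, again higher in MTAL, where 1.12% of all genes were higher, led by *Nupr1* (2.19, adjusted p = 0.00338), *Atf3* (1.71, adjusted p = 0.00470) and *Slc7a5* (1.19, adjusted p = 0.00516). Immediate early genes, which respond to dissection among other stimuli and overlap with stress signalling, summed to 1863 to 6822 CPM in WT MTAL, 2964 to 3349 CPM in cKO MTAL, 1301 to 2685 CPM in WT CTAL and 916 to 1376 CPM in cKO CTAL, and their part in these differences was not tested. Of 33 other folding enzymes 2 (6.06%) were called in WT MTAL against WT CTAL, where 6.87% of all genes were called. They were *Ppib* (−0.42, adjusted p = 0.00168) and *Txndc5* (−0.49, adjusted p = 0.00485), a further disulfide isomerase, both lower in WT MTAL. The cargo receptor *Lman1*, 1 of 20 (5%) other genes of the ATF6 and IRE1 pathways, was lower too (−0.27, adjusted p = 0.0211). In the interaction 0 genes of these lists were called.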

How the data were processed

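Poly-A mRNA of the 18 pools was sequenced as paired-end reads from strand-specific libraries. The authors used the DRAGEN platform, mm10 and a GENCODE annotation to make the deposited estimated counts and TPM values per gene. Whether counting used the strand, and how reads of several genes were treated, is not given in the sources used here. The study excluded 2 cKO MTAL pools and 1 cKO CTAL pool, which were not analysed here.

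The planned test assumed whole counts, and the estimated counts were rounded. A gene entered a comparison at 3 CPM or more in 5 pools (3 pools if cKO MTAL took part). Pools of the groups compared were scaled by TMM and fitted in edgeR 4.0.16 (R 4.3.3) by quasi-likelihood, with Benjamini-Hochberg adjustment over all genes tested, and genes under 0.05 were called. CPM use TMM library sizes of all 18 pools. Alternatives used DESeq2 1.42.0, limma 3.58.1 on log2(TPM + 1), other filters and scalings, and each pool left out. The tests were checked on simulated counts. No 2 pools of a group agreed within sampling noise (chi-square per gene 18.5 to 199).

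The 31 genes, the pathway lists and the marker lists were chosen with earlier results of these data known. Named are all 31 genes, the 3 largest called changes in each direction of each pathway list, *Cldn10*, *Umod*, *Slc12a1* and summed markers. *Slc12a1* was called in no comparison.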

Additional observations from a re-analysis of the deposited data

Results flagged for a closer look

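Of 93 sets of CPM values (31 genes in the 3 groups of 5 pools), 16 had 1 pool farther from the others than Dixon's 95% limit allows. Chance gives this for about 1 set in 20 if sets are independent, which genes of the same pools are not. The pool cKO CTAL 2 was the highest of its group by this limit for 12 genes. They were *Hspa5* (949 CPM), *Calr* (947), *Hsp90b1* (758), *Pdia3* (509.7), *Dnajc3* (316), *Hyou1* (218), *Pdia6* (205), *Pdia4* (197), *Manf* (97.7), *Syvn1* (61.2), *Sdf2l1* (41.4) and *Creld2* (41.2 CPM). No sensor and no transcription factor was among them, but *Xbp1* (144 CPM, 81.0 to 99.1 CPM in the other cKO CTAL pools) fell just short of the limit. The remaining 4 sets were *Atf6* in WT CTAL 3 (98.1 CPM), *Eif2ak3* and *Derl3* in WT CTAL 22 (103 and 2.24 CPM) and *Derl3* in WT MTAL 13 (2.08 CPM). The group of 3 cKO MTAL pools was not tested against this limit. *Umod* had a genotype effect in MTAL that exceeded the one in CTAL by 0.61 on the log2 scale (interaction, adjusted p = 0.0450).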

How the results depend on the processing

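In MTAL the fold changes of the 9 called genes kept their sign under all 16 alternatives. Against 9 called, limma on TPM called 5 (without *Dnajb11*, *Hyou1*, *Manf* and *Sdf2l1*). A term for the 7 pools with *Xist* at 3 CPM or more, added after seeing the data, called 0, with WT MTAL 13 as the only WT MTAL pool under that level. The other tests, scalings and filters called 9 or 10, and 1 pool left out gave 6 to 9. In one fit of all 18 pools *Hspa5* and *Manf* were replaced by *Fkbp2* and *Fkbp11*. In cKO CTAL against WT CTAL the *Xist* term called 1 (*Sdf2l1*, 1.17, adjusted p = 0.0451) and every other alternative 0. In WT MTAL against WT CTAL (1 called), both DESeq2 tests and edgeR's likelihood ratio test called 2, WT CTAL 1 counted as cKO gave 0, and 1 pool left out gave 0 to 2. In cKO MTAL against cKO CTAL (0 called), the *Xist* term called 2, 1 pool left out gave 0 to 2, and leaving out cKO CTAL 2 and cKO MTAL 20 together, also added after seeing the data, gave 3. In the interaction (0 called), DESeq2's Wald and likelihood ratio tests, edgeR's likelihood ratio test and no filter on low counts each called 1 (*Fkbp11*), 1 pool left out gave 0 to 1, and leaving out both pools gave 1. Numbers of genes called overall varied more, from 47 with the *Xist* term to 2138 in one fit of all 18 pools in MTAL beside 845. Except where fewer pools or genes entered, the cause was not tested. No value of the 31 genes that was called changed sign.

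No paired analysis was possible because the replicate numbers are unique to each pool and no 2 pools share an animal. A term for *Xist* at 10 CPM was planned and not run, since no pool reached that level, and the planned look at protein ends was not run, since no protein table was used here. With 3 cKO MTAL pools, of which 1 decides several calls, sizes are imprecise. *Trib3* and *Derl3* (at most 2.87 CPM) passed the filter on low counts in no comparison.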
